A study of Homo sapiens with 8 samples.

Results

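PML::RARA is the fusion protein of acute promyelocytic leukemia, in which the retinoic acid receptor alpha is joined to the PML protein. Its peaks at the promoters of the proteasome genes are described here. The peaks were chosen from the anti-PML::RARA peaks of induced U937-PR9 cells by the gene symbol that the authors had given to them. Every symbol that starts with PSMA, PSMB, PSMC, PSMD, PSME, PSMF or PSMG and a digit was taken, whatever the size of the peak. This gave 28 peaks with 27 symbols, out of 7169 peaks with a gene symbol and 15412 peaks in all. Of the 27 symbols, 24 belong to proteasome subunits, activators, the inhibitor or assembly chaperones, with 25 peaks. The other 3 share only the letters. PSMC3IP is a recombination factor that was named for binding PSMC3, PSME3IP1 is a protein that binds PSME3, and PSMA3-AS1 is a long noncoding RNA antisense to PSMA3.

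U937-PR9 is a monocytic cell line that carries a PML::RARA transgene under a promoter switched on by zinc. Induced cells were given 100 μM ZnSO4 for 5 h and uninduced cells sterile water for the same time, and Cut&Run was run on their nuclei with an anti-PML::RARA or an anti-RARA antibody in 2 replicates of each condition, which gave 8 libraries. In this assay a nuclease tethered to the antibody cuts the DNA next to the bound protein, and the released fragments are sequenced. Only the peaks found with the first antibody after induction are used here, so zinc itself and the fusion protein cannot be told apart, and no background in uninduced cells is given. The list holds peaks reproducible across both replicates but 1 set of values per peak and none per replicate. No spread between replicates can therefore be given, and no difference below was tested. The peak height is the largest signal within a peak, the total signal is its sum over the peak, and both are in the deposited units, whose scaling and sequencing depth are unknown. Heights in the list are whole numbers from 13 to 87. The apex is the middle of the interval with the largest signal.

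The proteasome is the protease that degrades proteins marked with ubiquitin. Its 20S core is a barrel of rings of alpha subunits, which gate the entry, around rings of beta subunits, of which PSMB5, PSMB6 and PSMB7 hold the active sites. A 19S regulatory particle caps the barrel. Its base contains a ring of ATPases (PSMC genes) that unfold the substrate, and its lid removes ubiquitin. Interferon replaces the active subunits by PSMB8, PSMB9 and PSMB10 and induces the PA28 activator of PSME1 and PSME2, which changes the peptides available for presentation on MHC class I. The transcription factor NFE2L1 raises the subunit genes together when the proteasome is inhibited, through antioxidant-type elements in their promoters. Degradation of PML::RARA under arsenic or retinoic acid also runs through this protease.

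The sequences below are those under or beside the apex that the results turn on. All were read from GRCh37, the same build as hg19, on the strand of the gene and from 5′ to 3′. The first set shows a word of the YY1 kind, AAGATGGC, in capitals. It is shown because 5 of the 28 peaks held it within 200 bp of the apex and because of its position in the genes.
PSMB7 (chr9:127177670-127177737, minus strand): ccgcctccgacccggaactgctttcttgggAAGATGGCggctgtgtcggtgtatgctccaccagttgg
PSMA2 (chr7:42971723-42971790, minus strand): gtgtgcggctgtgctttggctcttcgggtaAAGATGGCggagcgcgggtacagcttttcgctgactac
PSMD5 (chr9:123605153-123605220, minus strand): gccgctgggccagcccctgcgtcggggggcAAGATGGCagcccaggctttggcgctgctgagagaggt
PSMD11 (chr17:30771509-30771576, plus strand): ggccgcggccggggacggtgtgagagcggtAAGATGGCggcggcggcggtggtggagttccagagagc
PSMB5 (chr14:23504293-23504360, minus strand): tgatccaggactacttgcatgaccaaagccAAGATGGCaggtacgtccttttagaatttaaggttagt

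The second set shows a word of the ETS kind, CCGGAAG or its reverse complement, with 1 match per sequence in capitals (that of PSMA6 holds a further match in lower case). It was found at 10 of the 28 apexes, and the examples were taken from high and low peaks.
PSMD8 (chr19:38865164-38865230, plus strand): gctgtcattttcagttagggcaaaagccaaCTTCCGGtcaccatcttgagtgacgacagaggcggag
PSMA6 (chr14:35761556-35761622, plus strand): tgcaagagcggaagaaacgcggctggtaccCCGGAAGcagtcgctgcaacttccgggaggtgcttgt
PSMB7 (chr9:127177731-127177797, minus strand): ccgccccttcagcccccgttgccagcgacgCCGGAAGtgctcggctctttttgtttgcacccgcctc
PSMG3 (chr7:1609631-1609697, minus strand): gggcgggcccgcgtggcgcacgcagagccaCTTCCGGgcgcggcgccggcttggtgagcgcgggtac

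The last set holds a word of the antioxidant kind, TGACNNNGC on either strand, in capitals. It is shown at 2 high peaks of the regulatory particle, 157 and 125 bp from their apexes. Lower peaks held it too, as at PSMD5 (height 19), where it lay 1 bp from the apex.
PSMD3 (chr17:38136993-38137061, plus strand): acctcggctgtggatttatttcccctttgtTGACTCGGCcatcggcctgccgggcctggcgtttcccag
PSMC4 (chr19:40477069-40477137, plus strand): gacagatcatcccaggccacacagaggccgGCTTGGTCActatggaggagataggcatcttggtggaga

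Each of the 48 genes of the proteasome list was then looked up, whatever symbol its peak carried. A peak with its own symbol was present for 24 of 48 genes, or 50.0% (Wilson 95% interval 36.4 to 63.6), where 29.9% of all protein-coding genes had one. A peak covered the canonical start site of 31 of 48 genes, or 64.6% (50.4 to 76.6), where it covered that of 35.5% of all protein-coding genes. Both intervals cover the counting of genes only, and the list of 48 was fixed with earlier results of these data known. Most proteasome genes start in CpG-rich DNA, which was covered more often in general: among the 43 proteasome genes with such a start 28 were covered (65.1%), and among all protein-coding genes with such a start 48.5% were. The share of covered proteasome genes thus stood above that of all genes and above that of genes in this class of CpG-rich starts. Within 200 bp of the start, the median GC content was 61.8% at covered and 66.1% at uncovered proteasome genes, against 68.3% at the covered starts of other protein-coding genes. Whether it differed from other housekeeping genes of similar expression was not tested.

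The 24 genes that lacked their own symbol in the list fell into 4 kinds. For 3 genes the start was covered by a peak without any symbol: PSMB3, a beta ring subunit (height 52), PSMA5, an alpha ring subunit (35), and PSME1 (30). For 4 genes the covering peak carried the symbol of another gene. PSMC5, an ATPase, lay under a peak given to FTSJ3 (height 29), PSMB9 under that of TAP1 (27), and PSMD13, a lid subunit, under that of SIRT3 (41). The peak over PSMD9, an assembly chaperone of the base, was given to HPD (height 53), although its apex was 41 bp from the canonical start of PSMD9 and 29890 bp from that of HPD. For PSMC2 and PSME3 only another annotated start was covered, at the peaks of DNAJC2 (height 19) and BECN1 (height 16).

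No peak lay at any annotated start of the remaining 15 genes. These were PSMA1, PSMA7 and PSMA8 of the alpha subunits, PSMB4 and PSMB6 of the beta ring and PSMB11, the thymus-specific subunit. Of the regulatory particle they were the ATPase PSMC1, the scaffold PSMD1 and the lid subunits PSMD6, PSMD7, PSMD12 and PSMD14, of which PSMD14 is the deubiquitinase of the lid. The activator PSME4 and the core chaperones PSMG2 and PSMG4 completed them. The nearest peak was 6838 bp (PSMB11) to 330091 bp (PSMA1) from their canonical starts, with a median of 85501 bp, and in 10 of 15 it was more than 50 kb away. PSMA8 and PSMB11 are known for their restriction to testis and thymus, but the other genes encode parts of the constitutive proteasome or general accessory factors. Subunits of the same ring thus differed in whether a peak was present. Most genes lack such a peak: a canonical start was covered in 35.5% of all protein-coding genes and in 64.6% of the 48.

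**Figure D1:**
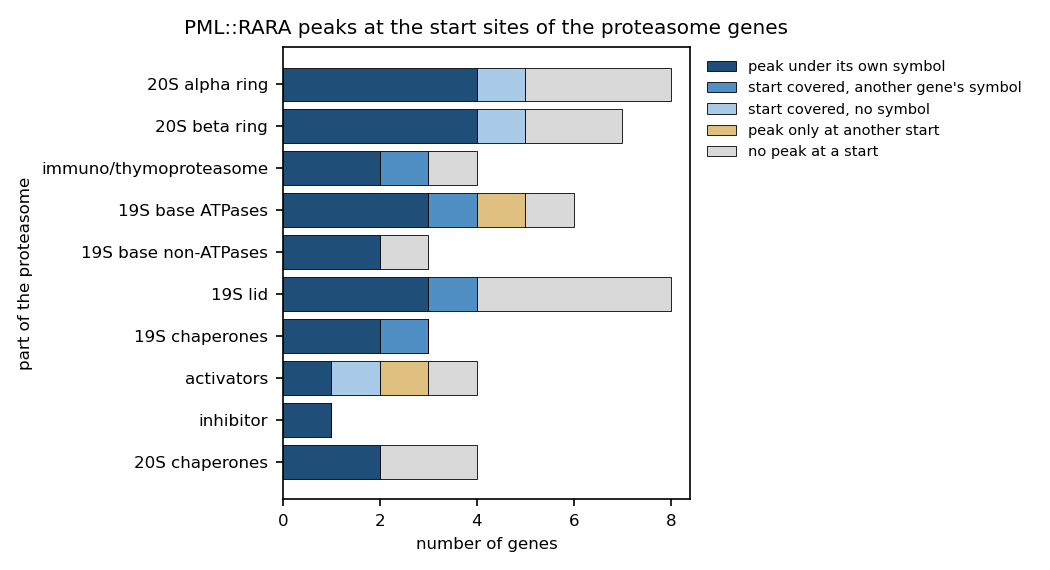
Number of proteasome genes (horizontal axis) in each part of the complex (vertical axis) by the kind of PML::RARA peak at their start sites. Every part holds at least 1 gene with a covered start, and all 3 regulatory particle chaperones (19S chaperones) had one, whereas 4 of 8 lid genes had no peak at any start.

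Among the 8 alpha subunits, PSMA2, PSMA3, PSMA4 and PSMA6 had a peak with their own symbol. PSMA6 had a height of 45 within only 617 bp, which was higher than 90.8% of the other labelled peaks and wider than 15.5% of them. PSMA3 and PSMA2 followed at 23 and 22, and PSMA4 at 16 was among the lowest of the whole list. Many peaks share this height: 0.196% of the other labelled peaks were below 16 and 6.04% were below 17. With the peak of PSMA5 at 35, the heights over the covered alpha genes ran from 16 to 45. The PSMA2 peak (799 bp) also covered the start of MRPL32, a mitochondrial ribosomal protein gene transcribed the other way from 202 bp away.

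Of the 7 constitutive beta genes, PSMB1, PSMB2, PSMB5 and PSMB7 had their own symbol. PSMB1, a structural subunit, carried the highest peak of all 28 members, with a height of 60, a width of 2091 bp and a total signal of 29490, and was higher than 98.8% of the other labelled peaks. Its apex lay 993 bp upstream of the PSMB1 start and 69 bp from that of TBP, the TATA-binding protein gene, which starts 1062 bp from PSMB1. The 121 bases around this apex (chr6:170863328-170863448, minus strand) are shown because they held none of the searched words other than retinoid half-sites, and so have no capitals.
PSMB1: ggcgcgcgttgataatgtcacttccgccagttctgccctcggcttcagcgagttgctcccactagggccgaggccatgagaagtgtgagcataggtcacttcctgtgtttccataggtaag

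None of the 3 constitutive catalytic subunits had a peak above the median of the other labelled peaks. PSMB7, with trypsin-like activity, had a height of 26, which is that median, PSMB5, with chymotrypsin-like activity and the target of bortezomib, had 19, and PSMB6, with caspase-like activity, had no peak. PSMB2 was at 19. The PSMB7, PSMB5 and PSMB2 apexes lay 58, 116 and 59 bp upstream of their starts, at the promoter itself, unlike that of PSMB1.

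Of the 6 ATPases of the base, PSMC3, PSMC4 and PSMC6 were labelled. PSMC4 had a height of 46 over 1266 bp, PSMC3 a height of 30 over 635 bp and PSMC6 a height of 16 over 528 bp. The ring is built of 1 copy of each, and the heights over the covered genes (PSMC5 at 29 included) ran from 16 to 46. Among the other base genes, PSMD2, a scaffold of the base, had a height of 34 over 494 bp and PSMD4, a ubiquitin receptor, had 21 over 690 bp.

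The 3 labelled lid genes were PSMD8 (height 48), PSMD3 (47) and PSMD11 (18). PSMD8 was higher than 93.3% of the other labelled peaks but wider than only 15.0% of them, and its apex was 9 bp upstream of the start. PSMD3 was as high but spread over 1496 bp, and PSMD11, at 1333 bp, was about as wide but low. The base chaperone PSMD10 (gankyrin) had a height of 31 in a peak that also covered the start of ATG4A, 236 bp away, and PSMD5 had 19. PSMF1, the PI31 inhibitor of the 20S core, had 27.

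Among the core chaperones PSMG1 had a height of 34 over 1551 bp. PSMG3 carried both a low peak of 16 over its canonical start and a distal peak of 21, 285 bp wide, 1080 bp upstream and 107 bp from another annotated start of the gene. The gap between them was 245 bp. The distal peak was the narrowest of the 28 members and the only member that did not cover the canonical start.

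The 3 peaks whose symbols are not those of proteasome genes were all higher than the median of the other labelled peaks. PSMC3IP had a height of 40 over 1634 bp, PSME3IP1 had 35 over 1453 bp, with the start of RSPRY1 290 bp from its own, and PSMA3-AS1 had 32 over 2005 bp.

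**Figure D2:**
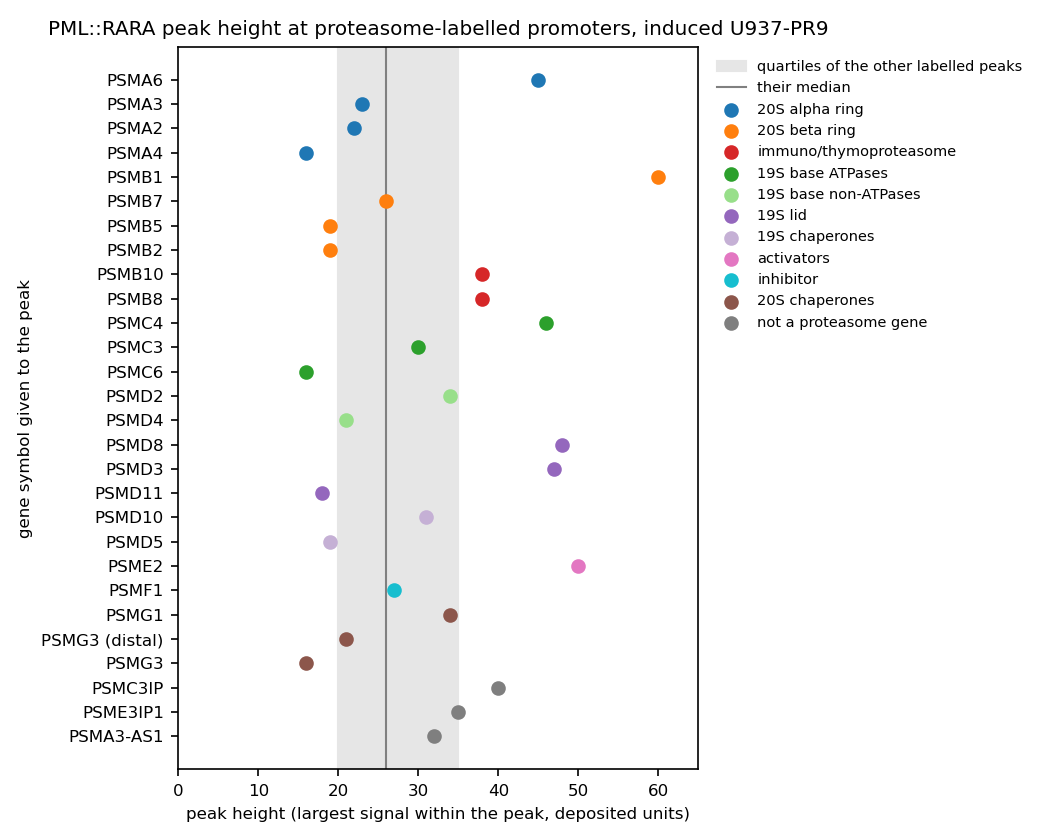
Peak height (horizontal axis, deposited units) of the 28 peaks, 1 point each, ordered by part of the proteasome and, within it, by height. The grey band runs from 20 to 35, the quartiles of the 7141 other labelled peaks, with their median of 26 as a line. PSMB1 at 60 is the highest, and PSMA4, PSMC6 and PSMG3 at 16 are the lowest.

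As a group, the 28 peaks were close in height to the other labelled peaks, and more of them were narrow. The median height was 30.5 (95% order-statistic interval 21.0 to 38.0) against 26, a log2 difference of 0.23 (-0.31 to 0.55). It fell to 27.0 against 26 when the 3 symbols that are not proteasome genes were left out. Of the 28 peaks 9 (32.1%) were above the upper quartile of the others, where 23.1% of the others were. The median width was 940 bp (617 to 1453) against 1108 bp, a log2 difference of -0.24 (-0.84 to 0.39), and 799 bp for the proteasome genes alone. Of the 28 peaks 12 (42.9%) were below the lower quartile of width of 771 bp, where 25.0% of the others were, while the share above the upper quartile of width was the same, at 7 of 28 (25.0%) against 25.0%. The width difference was 0.00 when peaks were assigned by an own start site within 1 kb of the apex, whatever their symbol. The interval of each difference included 0. These intervals cover the counting of peaks only, and neither difference was tested.

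Height and width rose together to a like degree in the members (Spearman's rho 0.478, n = 28 peaks) and in the other labelled peaks (0.447, n = 7141). The points share 1 list and 1 signal scale. PSMD8 and PSMA6 lay apart as high and narrow. PSMD2 (height 34 over 494 bp) was narrow, but its height was within the quartiles of the other labelled peaks. PSMD11 (height 18 over 1333 bp) was low, but its width was within their quartiles.

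**Figure D3:**
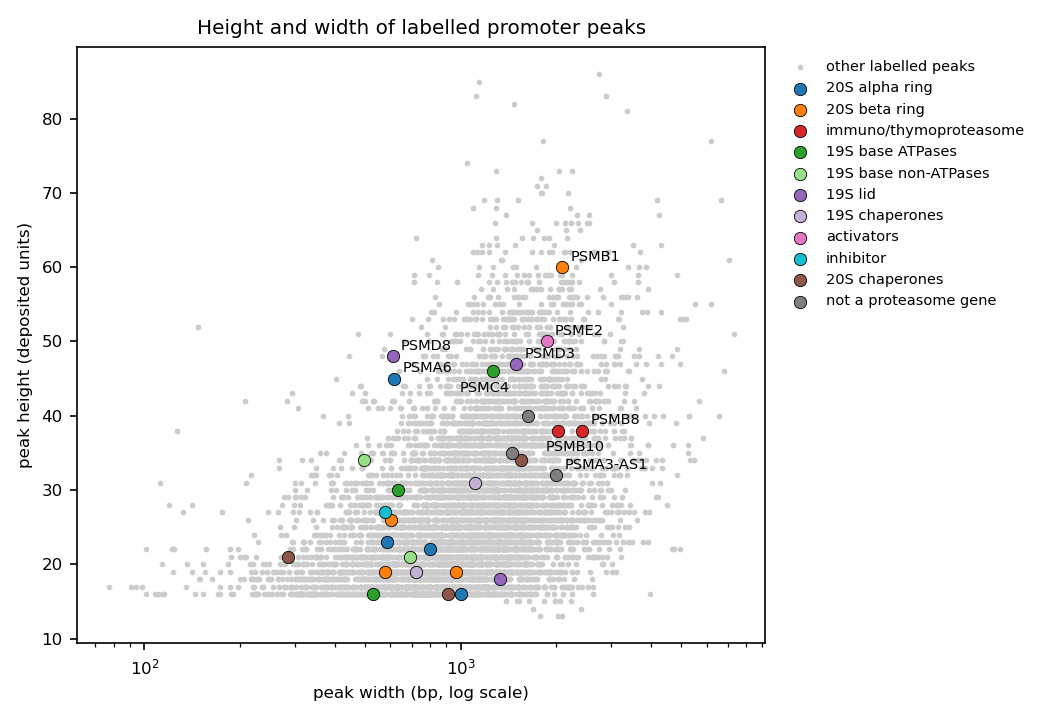
Peak height (deposited units) against peak width (bp, log scale) for the 28 members, coloured by part of the proteasome, over the 7141 other labelled peaks in grey. PSMD8 (height 48, 610 bp) and PSMA6 (45, 617 bp) lie at the high and narrow side, and PSMB8 (38, 2431 bp) is the widest member.

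The apex lay just upstream of the start in most members. It was upstream of the canonical start in 26 of 28 peaks (92.9%) against 75.5% of the other labelled peaks with a known start, and within 250 bp upstream in 21 of 28 (75.0%) against 53.0%. The peak covered that start in 27 of 28 (96.4%) against 81.3%. The exceptions downstream were PSMA3, 12 bp into exon 1, and PSMB10, 1055 bp into the gene in intron 4 of its canonical transcript, where another annotated transcript of PSMB10 starts at the apex. In 5 of 28 the apex was more than 500 bp away: PSMB1, PSMB8, PSMB10, PSME2 and the distal peak of PSMG3. For PSMB8 and PSME2 another annotated start of the same gene was 52 and 140 bp from the apex, and for PSME2 the start of RNF31, a ubiquitin ligase gene transcribed in the opposite direction, was 100 bp from it. More than 1 protein-coding start was covered in 6 of 28 peaks (21.4%) against 11.1%. In 4 of 27 peaks with a protein-coding symbol (14.8%) another such start was nearer to the apex than its own, against 10.5%. The symbol of a member is thus not always that of the nearest gene, as in the other labelled peaks.

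**Figure D4:**
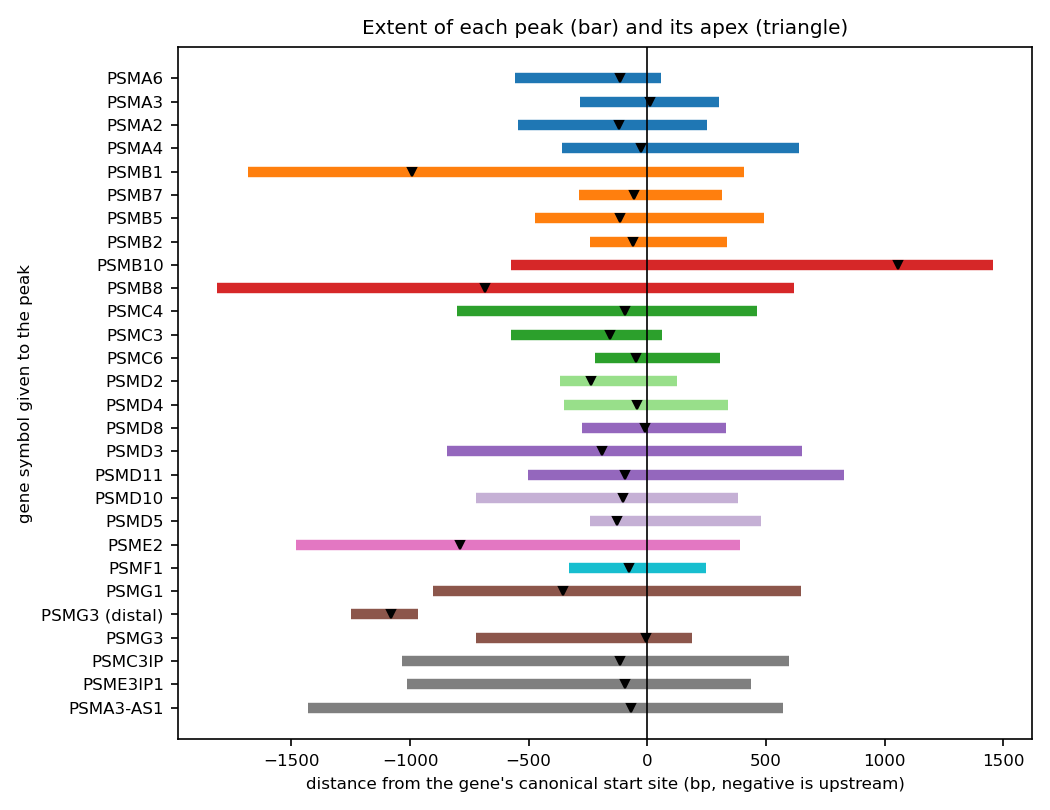
Extent of each of the 28 peaks (bar, coloured by part of the proteasome) and its apex (triangle) relative to the canonical start of the gene, in bp along the direction of transcription. Most apexes fall between 250 bp upstream and the start, whereas those of PSMB1, PSMB8, PSME2 and the distal PSMG3 peak lie 684 to 1080 bp upstream and that of PSMB10 1055 bp downstream.

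The starts of all 5 interferon-inducible genes (PSMB8, PSMB9, PSMB10, PSME1 and PSME2) were covered. Of the 48 proteasome genes 64.6% had a covered start, and of all protein-coding genes 35.5%. The group of 5 was formed after the values had been seen, so its values are a description. PSMB8 had a height of 38 over 2431 bp, PSMB10 had 38 over 2034 bp, PSMB9 (under the symbol of TAP1) had 27 over 2460 bp, PSME1 had 30 over 1209 bp, and PSME2 had 50 over 1872 bp. Their median width was 2034 bp, against 940 bp for the other 26 covered proteasome genes. A width of at least 2000 bp occurred in 3 of these 5 and in 1 of the 26, which was PSMB1. Of the other labelled peaks, 88.7% were narrower than 2005 bp. The peaks over PSMB9, PSME2 and PSMB1 also covered the starts of TAP1, RNF31 and TBP. Heights of the 5 and the 26 overlapped, with a range of 27 to 50 against 16 to 60. The 5 genes lie in 2 clusters and at PSMB10 alone. In the MHC region, PSMB8 and PSMB9 alternate with TAP2 and TAP1, the subunits of the transporter that carries proteasome products to MHC class I, and all 4 starts were covered by 3 peaks, since PSMB9 and TAP1 start 488 bp apart in opposite directions. The TAP2 peak was 26 high and 1275 bp wide. On chromosome 14, PSME1 and PSME2 start 10416 bp apart, with the peak of EMC9 (height 45) between them.

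**Figure D5:**
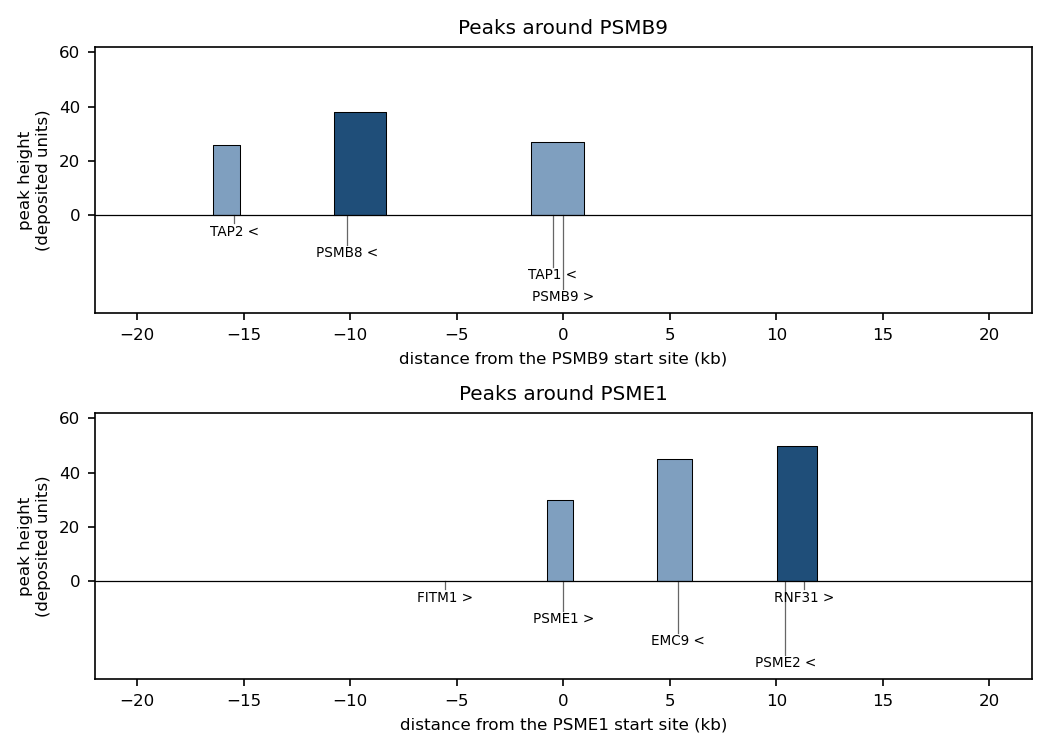
Peaks within 20 kb of the start sites of PSMB9 and PSME1, drawn as boxes of their true width (horizontal axis, kb from that start) and height (vertical axis, deposited units). Dark boxes carry a proteasome symbol, names below mark canonical starts of named protein-coding genes, and > and < give their direction on the plus and minus strand. The box over PSMB9 carries the symbol of TAP1 and the box over PSME1 carries none.

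A start of another protein-coding gene, facing away within 1 kb, was found for 8 of 48 proteasome genes (16.7%) against 10.3% of protein-coding genes with a labelled peak. Such a partner was present at 5 of 31 covered starts (16.1%) and at 3 of 17 uncovered starts (17.6%), which were PSMA7 with SS18L1, PSME4 with ACYP2 and PSMG2 with CEP76. Genes with and without a peak thus had divergent partners in like shares. By position, 6 of the 28 members, PSMA3-AS1 among them, lay on chromosome 14, which held 215 of the 7169 labelled peaks. The proteasome genes PSMA3, PSMA6, PSMB5, PSMB11, PSMC1, PSMC6, PSME1 and PSME2 are all located on this chromosome. The count of members there thus depends on where the genes lie.

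Words of transcription factors were searched within 200 bp of the apex on both strands, and a match is a description of the sequence and not of binding. The GC box, GGGCGG, was present in 21 of 28 peaks (75.0%) against 76.2% of the other labelled peaks, but around the centre of the peak in place of the apex in 53.6% against 74.5%. The NRF1 word GCATGCGC was present in 2 of 28 (7.14%) against 6.18%, and the E-box CACGTG in 3 of 28 (10.7%) against 12.6%. The CREB word TGACGTCA was present in 1 of 28 (3.57%) against 3.12%, and the BANP word TCTCGCGA in 2 of 28 (7.14%) against 2.25%. CCAAT words of the NF-Y kind (CCAAT, then C or G, then A or G) were present in 11 of 28 (39.3%) against 28.6%. Among these 11 were all 3 peaks whose symbols are not those of proteasome genes, so the share among the proteasome genes alone was lower. The antioxidant word was present in 8 of 28 (28.6%) against 20.5%. The shares were closer within 100 bp of the apex, at 4 of 28 (14.3%) against 12.4%. Around the peak centre they were 6 of 28 (21.4%) against 19.4%. The ETS word CCGGAAG was present in 10 of 28 (35.7%, Wilson 95% interval 20.7 to 54.2) against 21.8%. The median height of the 10 peaks with an ETS word was 36.5 and that of the 18 without was 26.5, whereas it was 26 with and without in the other labelled peaks. The 10 peaks with an ETS word included PSMC3IP (height 40) and PSME3IP1 (35), whose symbols are not those of proteasome genes. At PSMD8 this word lay 5 bp from the apex, at PSMG3 9 bp and at PSMB7 15 bp, as printed above, but the heights there were 48, 16 and 26.

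The YY1 word was present in 5 of 28 peaks (17.9%) against 6.01% of the other labelled peaks. In PSMB7, PSMA2, PSMD5 and PSMD11 it ran in the direction of the gene with its middle 14 to 18 bp downstream of the start, and the ATG within it was an annotated start codon. Of the 414 other labelled peaks that held the word and whose symbol is in GENCODE, 144 (34.8%) had it at a start codon of the labelled gene. In PSMB5 it lay 217 bp upstream of the canonical start and at no start codon. These 5 peaks had heights of 18 to 26 with a median of 19, against 34 for the 23 members without the word, while the other labelled peaks had 26 with and without it. Within 100 bp of the apex the word remained in 1 of 28 peaks (3.57%) against 3.12%, so the difference in share was not seen closer to the apex.

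Half-sites of the kind that retinoic acid receptors bind (the word AGGTCA and its usual variants, namely the word AGTTCA, also the word GGGTCA, and lastly the word GGTTCA) were found in 15 of 28 peaks (53.6%) against 45.6%, but within 100 bp of the apex in 6 of 28 (21.4%) against 27.7%, so the direction turned with the window. The presence or absence of these letters in a window says nothing of how the fusion protein was recruited there.

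The same words were counted within 200 bp of the canonical starts to include the genes without a peak. The ETS word was present at 9 of 31 covered proteasome starts (29.0%) and at 9 of 17 uncovered ones (52.9%), whereas among other protein-coding genes it was more frequent at covered (24.2%) than at uncovered starts (10.1%). The antioxidant word was present at 12 of 31 covered (38.7%) and 6 of 17 uncovered proteasome starts (35.3%), against 19.3% and 15.9% of other protein-coding genes. It was therefore about as frequent with a peak as without. The YY1 word was present at 5 of 31 covered (16.1%) and 1 of 17 uncovered proteasome starts (5.88%), against 7.93% and 3.07% of other protein-coding genes. The base composition around the apex was slightly less GC-rich in the members, with a median of 60.5% against 64.3% in the other labelled peaks.

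Of the 21 genes that act with the proteasome, 16 (76.2%, Wilson 95% interval 54.9 to 89.4) had a peak with their own symbol. The share among all protein-coding genes was 29.9%. The 21 genes were chosen with earlier results of these data known, so their shares are a description. The interval covers the counting of genes only. Of the 21, 17 (81.0%) had a covered canonical start, against 35.5% of all protein-coding genes and 48.5% of those with a CpG-rich start. NFE2L1, the factor that induces proteasome genes, had the highest of the 18 peaks with symbols of the 21 genes. Its height of 54 over 1624 bp was above that of 96.8% of the other labelled peaks. Its activating protease DDI2 had 29, NGLY1, which removes its sugars, had peaks of 20 and 24, and VCP, which extracts it from the membrane, had 35. NFE2L2, a related factor of the antioxidant response, had a height of 24 over 2100 bp, and KEAP1, which holds it in check, had 29. Among proteins that bind the 19S particle, the ubiquitin receptor ADRM1 had 34 and the deubiquitinase USP14 had 20. The deubiquitinase UCHL5 lay under a peak without a symbol (28), and the assembly chaperone PAAF1 under that of COA4 (44). No peak lay at a start of SEM1, a lid subunit, POMP, which matures the core, or UBQLN1, a shuttle factor. The median height of the 18 peaks was 25.0, close to that of the other labelled peaks, and their median width was 1393 bp.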

How the data were processed

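Cut&Run reads of U937-PR9 were trimmed by the authors with Trimmomatic, aligned to hg19 with Bowtie2, cleared of duplicates with Samtools and of blacklisted regions with Bedtools, and peaks were called with SEACR against the paired control (norm union). The authors kept peaks with an IDR below 0.05 across the 2 replicates and gave gene symbols from UCSC known genes where the apex overlapped a promoter. The deposited signal is the total per peak, and the deposited score is the largest signal within it, used as peak height. The columns carry other names, and their content was read from their values. Whether it was scaled, or pooled over replicates, is not given in the sources used here, and depth is unknown. The list has 1 group, and peaks of the other antibody and condition were not analysed here.

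Start sites, start codons and exons came from GENCODE release 44 on GRCh37, and canonical means its Ensembl canonical transcript. A peak was taken as labelled by its deposited symbol (6381 of 6546 symbols are in GENCODE). For 34 peaks with no end of the apex interval, the start of that interval served. CpG-rich meant at least 55% GC and a CpG ratio of at least 0.6 within 200 bp of the start. Shares have Wilson and medians order-statistic 95% intervals, which cover the counting of peaks or genes only. The motif search was tested on planted words and the interval of the median on simulated data. The members, the 48 proteasome and 21 associated genes and the motifs were chosen with earlier results of these data known. All members are reported. Further genes are named where they are on the associated list, share a peak with a proteasome gene, or neighbour one. One sequence result is not reported here. Alternatives were other thresholds, assignments, summaries and windows. Counts at canonical starts, CpG-rich starts and the interferon-inducible group were chosen after seeing the data. Python 3.11.15, numpy 2.4.6, scipy 1.17.1, pandas 2.3.3 and matplotlib 3.10.9 were used.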

Additional observations from a re-analysis of the deposited data

How the results depend on the processing

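The 27 symbols fell to 17 with peaks at or above the median height of the list and to 15 at or above its median width. Under the other assignments of peaks to genes, with the 3 added symbols, 33 to 36 genes had a peak. Without those symbols the same assignments gave 30 to 33 of the 48 proteasome genes. By the deposited symbols, 24 of the 48 had a peak. The median height stayed above that of the other labelled peaks, by 0.05 to 0.25 on the log2 scale. The width difference was -0.47 to 0.00. The difference in total signal was -0.36 (-0.66 to 0.56) and lay between -0.60 and 0.03, with the sign turning when peaks were assigned by an own start site within 1 kb. The ETS share was 28.6% within 100 bp of the apex, against 15.1% of the other labelled peaks, and 25.0% around the peak centre, against 19.2%, and 6 in place of 8 genes had a divergent partner within 500 bp. No paired analysis was possible because values of single replicates are not in the data used here. Leaving out a replicate in turn could not be done for that reason either. The depth of the libraries is unknown, and so is the counting error of the signal.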
